A study of Saccharomyces cerevisiae with 7 samples.

Results

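In budding yeast, 501 genes carried G at position -4 and A at position -3 before the start codon, out of 5691 counted features for which the authors deposited the 20 bases upstream of the start codon. The genes were chosen by sequence alone, from the last bases of that deposited column, and genes named RPS or RPL with a number were left out (6 with G at -4 and A at -3). The comparison set was the 1486 genes with A at both -4 and -3, from which 64 RPS or RPL genes were left out by the same rule. The genes kept made up 8.8% (G at -4) and 26.1% (A at -4) of the features with a context. All 501 were nuclear protein-coding genes of the RefSeq annotation. The rule removes no ribosomal gene with another name, so that RPP1B, for a protein of the ribosomal stalk, stayed among the 501.

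The study sequenced mRNA bound to ribosomes with and without Rps26, and its title ties Rps26 to Kozak elements, the bases around the start codon. The strain of Minus_Rps26 and Plus_Rps26 was BY4741 with RPS3 and RPS26A each under the GAL1 promoter (HisMX6::pGAL1-Rps3, NatMX6::pGAL1-Rps26A), RPS26B replaced by KanMX6, and the plasmid pCM189--Rps3-TAP. Galactose cultures held at 0.2 µg/ml doxycycline were washed and spent 4 h in glucose medium lacking the drug, and 100 µg/ml cycloheximide was added before harvest. Minus_Rps26 (3 libraries) is the eluate of IgG beads, labelled as TAP-tagged ribosomes lacking Rps26. Plus_Rps26 (3 libraries) is what the beads left unbound after 2 h, recovered from a 10% to 50% sucrose gradient and labelled as untagged ribosomes containing Rps26. Both groups therefore came from the same engineered cells in the same medium, and ribosome class and purification method cannot be told apart. Rps3_TAP is a single library from BY4741 with Rps3-TAP::HisMX6, from mid-log cells in glucose medium, and was purified on beads. Its strain label names no change to the RPS26 genes, so that strain, growth and Rps26 cannot be told apart in comparisons with it.

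In translation initiation a small ribosomal subunit scans from the cap of the mRNA and stops at a start codon, and the bases just upstream, the Kozak context, affect how efficiently that start codon is used. In yeast, A at -3 is the strongest single preference, and the neighbouring upstream positions also favour A. Rps26 is a protein of the small subunit that lies along the mRNA upstream of the start codon, near -4. A gene with G at -4 keeps the preferred A at -3 and departs from the yeast preference at the base before it.

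The contexts below are those of genes that later results turn on, as the authors deposited them, 5′ to 3′ from -20 to -1, with the bases at -4 and -3 in capitals. The first 3 belong to long genes with G at -4 that were higher in Minus_Rps26, and the next 3 to short genes with G at -4 that were lower.

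MLP1: taacgccacgttttagGAta

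YTA7: acaattggtgcagaaaGAac

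MDN1: accgttataatctgctGAga

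VMA16: gagctagagcgtgtaaGAta

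ERG28: atacactaaagtatcaGAta

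COF1: caaaaaactaacaaaaGAag

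CDC24 and SSK22 are the called members from the Hog1 osmotic stress pathway, NIP1 encodes a subunit of initiation factor eIF3, and YGP1 was the member that differed between Plus_Rps26 and Rps3_TAP.

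CDC24: ctaatccaacccgagaGAtc

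SSK22: gtagttccttgtaggtGAaa

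NIP1: caagcccgagatctacGAaa

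YGP1: aagtaatacagtaataGAaa

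Some comparison genes with A at -4 follow, EAF1 and SNT1 among the highest in Minus_Rps26 and ASC1 and PGK1 among the lowest.

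EAF1: gtacagtttccgcctcAAag

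SNT1: agaaacaaagcgtaagAAac

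ASC1: taaagtaaataaagtgAAaa

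PGK1: tttacaacaaatataaAAca

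MLP1, VMA16 and ERG28 share the 4 bases from -4 to -1, and MLP1 was higher in Minus_Rps26 while VMA16 and ERG28 were lower. Of the other genes named below that share them, QCR8, YMR226C and EMI1 were called lower (log2 fold changes -1.55, -1.52 and -1.22). EGD2 was below 0 (-0.55) but not called. SSK22, NIP1 and YGP1 also share their last 4 bases, and of these SSK22 was called higher in Minus_Rps26 over Plus_Rps26 while NIP1 and YGP1 were not called. HUB1 and RPP1B, named below, have the same last 4 bases as SSK22. HUB1 was called lower (log2 fold change -1.77), and RPP1B was below 0 (-1.13) but not called. The 501 genes held 496 distinct contexts. One 20-base context was shared by 6 genes of the COS family of subtelomeric membrane proteins, COS1, COS2, COS5, COS6, COS7 and COS8. Their sequences are so alike that reads may align to several of them. Non-unique alignments stayed out of the gene counts, so the counts of these genes are uncertain. COS6, the most abundant of the 6, had 645, 597 and 589 counts in Minus_Rps26 and 377, 592 and 1177 in Plus_Rps26.

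Beyond the pair of bases that chose them, the genes with G at -4 resembled the comparison set. Over the other 18 positions A made up 41.1% of bases after the choice of G at -4, 42.3% with A at -4 and 40.0% over all contexts. Directly before the pair, at -5, A was found in 43.7% of genes with G at -4 and in 36.7% of genes with A at -4. The pair was followed by AA at -2 and -1 in 117 genes with G at -4 (23.4%) and in 333 genes with A at -4 (22.4%). A at -2 and -1 thus followed both pairs about as often. These shares are descriptions of the annotated sequence, with no test.

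Total counts ran from 11590456 to 21405499 over the 3 Minus_Rps26 libraries and from 9605899 to 15279242 over the 3 Plus_Rps26 libraries, and reached 16145589 for Rps3_TAP. RPS26A, the targeted gene, was at 44.17, 25.44 and 35.07 CPM (counts scaled to library size) in Minus_Rps26, at 48.2, 110.8 and 96.93 CPM in Plus_Rps26, and at 10140 CPM in Rps3_TAP. Deleted RPS26B had 10 to 17 counts in 5 of the 6 engineered libraries, 142 in Plus_Rps26 replicate 2 and 14293 in Rps3_TAP. Reads of these near-identical genes may align to both, and non-unique alignments stayed out of the gene counts. Both checks concern the cells and say nothing of which ribosomes a library holds. Replicate 1 stood apart from the others. Across all features, the correlation of log2 ratios of Minus_Rps26 over Plus_Rps26 was 0.26 for replicate 1 with replicate 2, 0.28 for replicate 1 with replicate 3 and 0.93 for the remaining pair (a description across genes, which are not independent).

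Genes with G at -4 were less abundant on ribosomes than genes with A at -4 in every library. The median level was 36.0, 36.44 and 40.33 CPM per kb of coding length in Minus_Rps26, 33.66, 29.64 and 30.44 in Plus_Rps26 and 30.39 in Rps3_TAP. For genes with A at -4 the same medians were 44.15, 45.18 and 45.16, then 44.82, 43.77 and 42.53, and 41.83 CPM per kb. The ranges of the 2 contexts did not overlap over the 7 libraries. On the log2 scale the median level with G at -4 lay below that with A at -4 by 0.16 to 0.31 in Minus_Rps26, by 0.41 to 0.56 in Plus_Rps26 and by 0.46 in Rps3_TAP. The gap was thus smaller in the 3 Minus_Rps26 libraries than in the other 4, without overlap. Over all nuclear protein-coding genes other than RPS and RPL genes the medians lay close to those with G at -4. They were 35.24, 36.77 and 38.22 CPM per kb in Minus_Rps26, 33.76, 30.13 and 29.95 in Plus_Rps26 and 30.15 in Rps3_TAP. The level with G at -4 was thus near that of genes at large, and the gap was not particular to G at -4.

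The level of a gene in these libraries depends on how much of its mRNA a cell holds as well as on how much is bound by ribosomes, and these cannot be told apart here. Of all counts over nuclear protein-coding genes other than RPS and RPL genes, the genes with G at -4 took 7.55%, 7.51% and 7.64% in Minus_Rps26, 6.97%, 6.65% and 6.24% in Plus_Rps26, and 5.17% in Rps3_TAP. The genes with A at -4 took 33.3%, 32.7% and 31.8% in Minus_Rps26, 34.3%, 37.4% and 38.8% in Plus_Rps26, and 38.4% in Rps3_TAP. For G at -4 every share in Minus_Rps26 was above every share in Plus_Rps26, and for A at -4 every share was below. Shares of summed counts lean on the most abundant genes, and both shares have the same denominator. ASC1 and PGK1, both with A at -4, had 37308 and 57141 counts in Minus_Rps26 replicate 3. In Plus_Rps26 replicate 3 they had 138099 and 153805. RPS and RPL genes, at 16.1% to 20.2% of all counts in Minus_Rps26 and 26.6% to 32.3% in Plus_Rps26, are outside both the numerator and the denominator of these shares.

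**Figure D1:**
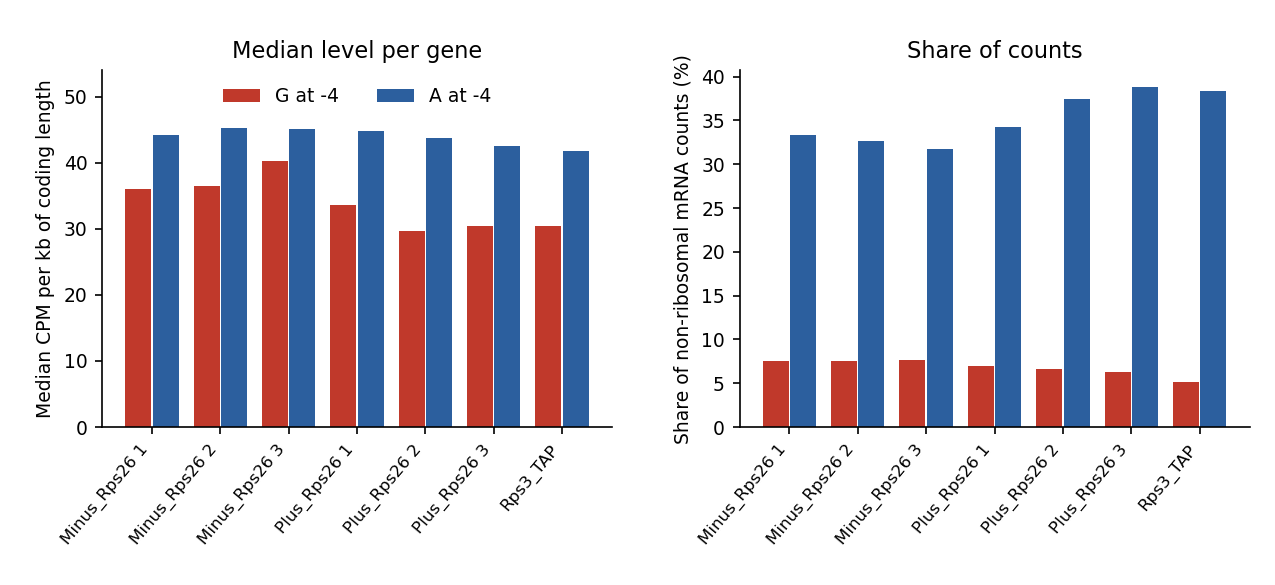
Left, the median level of genes with G at -4 (red) and A at -4 (blue), both with A at -3, in CPM per kb of coding length for each of the 7 libraries. Right, the percent of counts over nuclear protein-coding genes other than RPS and RPL genes that each set took. The red bars on the left run from 29.64 to 40.33 and stay under the blue bars, which run from 41.83 to 45.18.

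Between Minus_Rps26 and Plus_Rps26, genes with G at -4 changed in both directions and about as often as other genes. Of the 488 that passed the filter on low counts, 44 were higher in Minus_Rps26 and 31 were lower by edgeR's quasi-likelihood test at a Benjamini-Hochberg adjusted p under 0.05. Over all 5668 features tested, 16.0% were called, 8.10% higher and 7.90% lower. With G at -4 the shares were 9.02% higher and 6.35% lower, near that background, and with A at -4 they were 7.2% higher (105 of 1458) and 7.48% lower (109). Genes with C at -4 and A at -3 had 54 higher and 45 lower of 658, and those with T at -4 had 54 higher and 48 lower of 663.

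The higher members were mostly long genes, among them MLP1, YTA7 and ISW2, and the lower members were short, among them VMA16, ERG28 and COF1. Among the 44 higher members the log2 fold change was 0.92 to 2.07 with a median of 1.25, and among the 31 lower members it was -2.56 to -0.91 with a median of -1.35. All 44 had a ratio above 0 in each replicate, with a median log2 ratio of 0.51 in replicate 1, 1.38 in replicate 2 and 1.89 in replicate 3. The 31 were below 0 in 29, 31 and 31 cases, at medians of -0.36, -1.5 and -1.91. Replicate 1 showed the same directions at smaller size, apart from 2 of the 31. The members were called with replicate 1 among the libraries tested, so these signs are no separate check of the calls. Called genes of the comparison set showed the same in replicate 1. There, all 105 higher genes were above 0 and 106 of the 109 lower genes were below 0. The 13 genes that did not pass the filter, and were not tested, are CDA2, COS2, COS4, COS5, CSM4, DAL80, MF(ALPHA)2, YDR194W-A, YHL048C-A, YJR005C-A, YNR075C-A, YOL131W and YOR293C-A.

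These calls rested on which libraries and which model were used. With the replicate number as a block, taken to pair the eluate and flowthrough of one lysate although the description of Plus_Rps26 replicate 2 carries the flowthrough number 1, no feature was called by edgeR, against 171 of the 488 at an unadjusted p under 0.05 and 77 higher and 58 lower by DESeq2 without the block. With total counts in place of trimmed-mean scaling, 95 were higher and 1 was lower, since the median log2 fold change of all features then moved from 0.03 to 0.75. Leaving out replicate 2 or 3 of either group left no member called, leaving out Minus_Rps26 replicate 1 left 8 higher and 2 lower, and leaving out Plus_Rps26 replicate 1 gave 123 higher and 90 lower.

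The middle of the distribution differed by context. With G at -4 the median log2 fold change was 0.09 (quartiles -0.44 and 0.65), and 54.5% of the tested genes were above 0. With A at -4 the median was -0.03 (quartiles -0.59 and 0.51), and 48.7% were above 0. The medians were 0.01 with C at -4, 0.03 with T at -4 and 0.03 over all features tested, so that G at -4 was the highest and A at -4 the lowest of the 4 bases before A at -3 in this fit, with a gap of 0.12 between them.

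By replicate number the median log2 ratio of Minus_Rps26 over Plus_Rps26 (on log2 of CPM plus 1) was 0.03, 0.16 and 0.25 with G at -4. With A at -4 it was -0.05, -0.01 and 0.05, so that the gap between the medians was 0.08, 0.17 and 0.19 (SD 0.06, n = 3). G at -4 was above A at -4 in 3 of 3 replicates, and so was T at -4, by 0.05, 0.08 and 0.09. The median of all features tested was also above that with A at -4, by 0.06, 0.05 and 0.06. A place above A at -4 was thus not particular to G at -4. C at -4 was above A at -4 in replicates 1 and 2 (-0.02 and 0.03) and below it in replicate 3 (0.01). No p-value is given for the gap between G and A at -4, since genes are not replicates of a condition.

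Genes with another base than A at -3 had a median of 0.14, with 199 higher and 97 lower of 2127. Among genes with G at -4, those followed by G, C or T at -3 had medians of 0.17 (167 genes), 0.14 (88) and 0.04 (72). The median of 0.09 with A at -3 thus lay between those of G at -4 with T and with C at -3. Among genes with A at -4, those followed by G, C or T at -3 had medians of 0.08 (484 genes), 0.21 (188) and 0.18 (215). G at -4 thus lay above A at -4 with G at -3, and below it with C or T at -3.

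**Figure D2:**
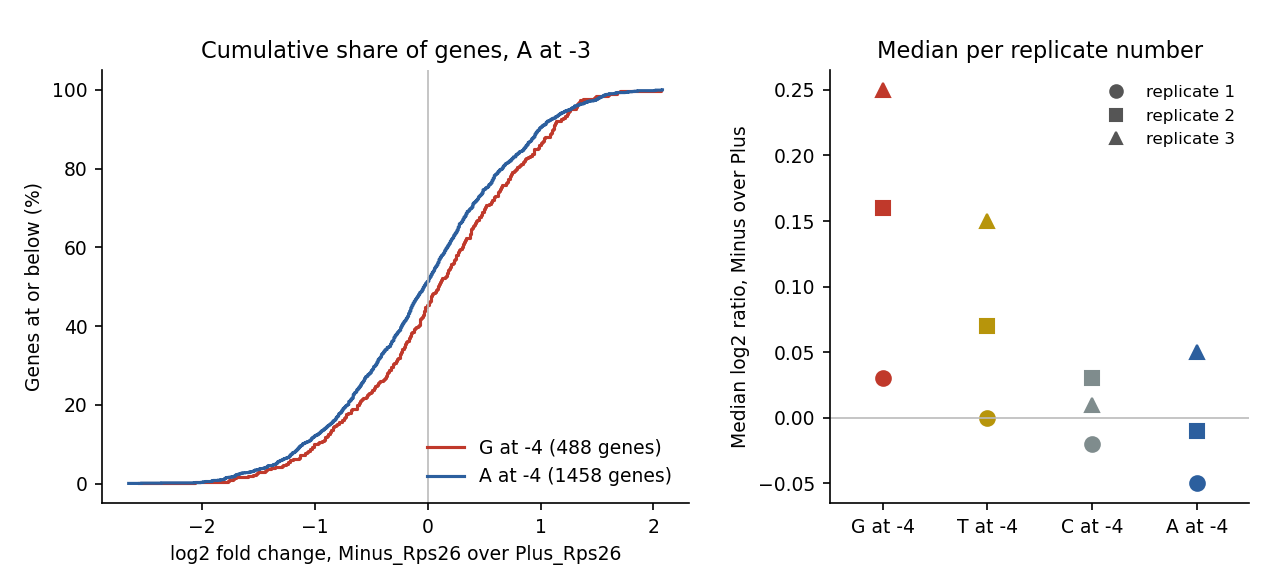
Left, the cumulative percent of genes (y axis) at or below each log2 fold change of Minus_Rps26 over Plus_Rps26 (x axis), for 488 genes with G at -4 (red) and 1458 with A at -4 (blue), both with A at -3. Right, the median log2 ratio for each base at -4 and each replicate number, one point per replicate pair. The red curve lies to the right of the blue one over the middle of the range, and the red points, 0.03 to 0.25, lie above the blue points of the same replicate.

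The 8 highest and 8 lowest called members were picked only among genes without overlap between the groups. Among the 8 highest, MLP1, for a filament-like protein of the nuclear pore basket, had the largest log2 fold change. MLP1 (YKR095W, chromosome XI, 619805 to 625432, sacCer3) was at 177.8, 182.2 and 293.3 CPM in Minus_Rps26, at 113.4, 22.65 and 19.53 CPM in Plus_Rps26 and at 49.4 CPM in Rps3_TAP. The groups did not overlap, as the choice required, though Plus_Rps26 replicate 1 lay nearer to Minus_Rps26 than to the rest of its own group. The log2 fold change was 2.07 ± 0.60 (SE, edgeR adjusted p = 0.0445), or 4.19-fold higher.

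YTA7, for an ATPase that acts on nucleosomes (YGR270W, chromosome VII, 1027370 to 1031509), was at 157.0, 170.2 and 307.9 CPM in Minus_Rps26 and at 82.7, 44.24 and 65.49 CPM in Plus_Rps26. Its log2 fold change was 1.72 ± 0.36 (SE, edgeR adjusted p = 0.0357). ISW2, for a chromatin remodelling ATPase, was at 114.7, 133.3 and 208.6 CPM against 78.81, 33.82 and 27.47 CPM, and its log2 fold change was 1.70 ± 0.42 (SE, edgeR adjusted p = 0.036). In both genes every Minus_Rps26 library lay above every Plus_Rps26 library, as the choice required, and the gap was narrowest in replicate 1.

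MDN1 (YLR106C, chromosome XII, 349006 to 363738), for the giant ATPase midasin that acts in assembly of the large ribosomal subunit, was the longest member at 14733 bases. It was at 457.0, 339.3 and 745.2 CPM in Minus_Rps26 and at 160.3, 126.1 and 258.6 CPM in Plus_Rps26, and its log2 fold change was 1.49 ± 0.38 (SE, edgeR adjusted p = 0.0365). Unlike the others it had nearly the same log2 ratio in each replicate, 1.51, 1.42 and 1.52. TEL1, for a DNA damage and telomere kinase, had a log2 fold change of 1.60 ± 0.34 (SE). After removal of the trend of log2 fold change with coding length, MDN1 was at -0.53 and TEL1 at -0.11, while the other 6 of the 8 stayed above 0, from 0.50 in YTA7 to 0.95 in AFT1, and none of the 8 was called.

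The other 3 of the 8 were SAK1, for a kinase that activates Snf1, STU2, for a microtubule polymerase, and AFT1, for the activator of iron uptake genes. Their log2 fold changes were 1.68 ± 0.36, 1.68 ± 0.36 and 1.47 ± 0.44 (SE). AFT1 was the closest to overlap, with 41.66 CPM in Minus_Rps26 replicate 1 against 36.0 CPM in Plus_Rps26 replicate 1.

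Among the lower members, VMA16, for a proteolipid subunit of the vacuolar proton pump, had the largest change. VMA16 (YHR026W, chromosome VIII, 160844 to 161485) was at 146.9, 156.8 and 96.32 CPM in Minus_Rps26, at 186.4, 1142 and 1014 CPM in Plus_Rps26 and at 514.4 CPM in Rps3_TAP. The groups did not overlap, as the choice required, and again the Plus_Rps26 library of replicate 1 lay next to the Minus_Rps26 libraries. The log2 fold change was -2.56 ± 0.57 (SE, edgeR adjusted p = 0.0357), or 5.88-fold lower in Minus_Rps26.

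ERG28 (YER044C, chromosome V, 237570 to 238016), for a scaffold of ergosterol synthesis enzymes, was at 24.83, 12.14 and 14.45 CPM in Minus_Rps26 and at 30.87, 58.38 and 123.9 CPM in Plus_Rps26. Its log2 fold change was -2.06 ± 0.49 (SE, edgeR adjusted p = 0.0357). COF1 (YLL050C, chromosome XII, 39804 to 40414), for the actin-severing protein cofilin, was at 336.7, 275.8 and 275.4 CPM against 566.9, 847.6 and 1102 CPM, and at 1642 CPM in Rps3_TAP. Its log2 fold change was -1.51 ± 0.33 (SE, edgeR adjusted p = 0.0357), and its log2 ratio in replicate 1 was -0.75, against -0.34 in VMA16.

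The other 5 of the 8 lowest were HUB1, for a ubiquitin-like protein that acts in splicing, CBR1, for cytochrome b5 reductase, KSH1, for a small protein of the secretory pathway, QCR8, for a subunit of respiratory complex III, and YMR226C. Their log2 fold changes ran from -1.77 ± 0.42 in HUB1 to -1.52 ± 0.41 in YMR226C (SE). None of these overlapped between the groups, since only genes without overlap could be picked. With the replicate block the adjusted p was 0.117 in each of the 16 genes, while every log2 fold change kept its sign, for example 2.55 in MLP1 and -2.27 in VMA16.

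**Figure D3:**
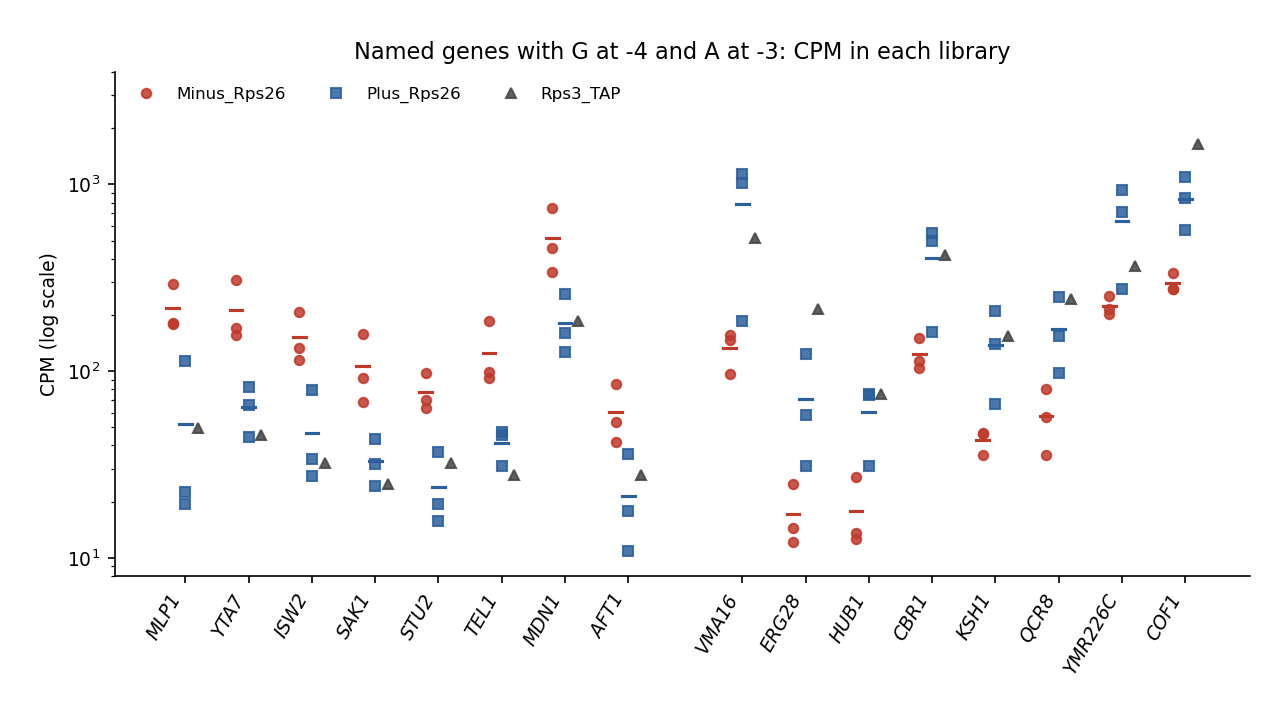
Levels in CPM (log axis) of the 8 highest (left) and 8 lowest (right) called genes with G at -4 and A at -3, by log2 fold change between Minus_Rps26 (circles) and Plus_Rps26 (squares), with Rps3_TAP as triangles. Each point is a library and each short bar the mean of a group of 3. In MLP1 and VMA16 one Plus_Rps26 library, replicate 1 at 113.4 and 186.4 CPM, lies near the Minus_Rps26 points.

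The 5 most abundant members per length had log2 fold changes below 0, though that of EGD2 changed sign with total-count scaling and with the length trend removed. RPP1B, for a protein of the ribosomal stalk, had a mean of 3364 CPM per kb over the 7 libraries and was at 1284, 1023 and 758.8 CPM in Minus_Rps26 against 1609, 2710 and 2374 CPM in Plus_Rps26. Its log2 fold change of -1.13 ± 0.35 (SE) did not pass the test (edgeR adjusted p = 0.0506), though the groups did not overlap. EGD2, for a subunit of the complex that meets nascent chains at the ribosome, came next at 1635 CPM per kb. Its groups overlapped, at 587.5, 731.1 and 546.9 CPM against 1065, 1017 and 641.7 CPM (log2 fold change -0.55 ± 0.32, SE, edgeR adjusted p = 0.222), and the log2 fold change was 0.13 with total-count scaling and 0.04 with the length trend removed. COF1, VMA16 and VMA6, for another subunit of the vacuolar proton pump, followed at 1180, 724.8 and 567.8 CPM per kb.

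Members called in the 2 directions differed in coding length. The 44 higher members had a median coding length of 2899.5 bases (903 to 14733) and the 31 lower members one of 564 bases (219 to 1155), against 1274.5 bases over the 488 tested. With A at -4 the medians were 3222 bases for higher and 564 bases for lower genes. Called genes of both contexts were thus split by length in the same way. Their mean levels were split too, at a median of 20.42 CPM per kb in the 44 higher members, 227.5 in the 31 lower members and 36.78 over all tested.

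In both contexts the median log2 fold change was higher in each longer bin of coding length than in the one before. Under 600 bases the median log2 fold change was -0.54 with G at -4 (70 genes, 16 lower, 0 higher) and -0.78 with A at -4. From 1000 to under 1500 bases it was -0.04 with G at -4 (119 genes, 1 higher, 2 lower) and -0.10 with A at -4. At 3000 bases or more it was 1.14 with G at -4 (37 genes, 21 higher, 0 lower) and 1.15 with A at -4. G at -4 lay above A at -4 in 5 of the 6 bins, with 3000 bases or more the exception, and the largest gap was in the shortest genes. Among genes of 1000 to 2000 bases the gap between the medians was 0.03.

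Once the trend with coding length was removed, no feature was called by edgeR, with 83 of the 488 members at an unadjusted p under 0.05, 36 higher and 47 lower. The medians were then 0.06 with G at -4 and -0.04 with A at -4, a gap close to that before. The 8 lowest members named above all stayed below 0 with the trend removed, VMA16 at -2.03, ERG28 at -1.43 and CBR1 at -1.36 among them, and with A at -4 ASC1 was at -2.52 and PGK1 at -2.36.

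Level moved with the gap as well. Genes were split into equal classes of low, middle and high mean level over the 7 libraries, at 24.51 and 65.63 CPM per kb, a split chosen after the data had been seen. In the low class the median log2 fold change was 0.52 with G at -4 (162 genes) and 0.47 with A at -4, in the middle class 0.20 (178 genes) and 0.15, and in the high class -0.47 (148 genes) and -0.48. The gap of 0.12 over all genes was thus 0.05, 0.04 and 0.01 within classes. Of the 488 members 30.3% were in the high class, against 40.1% with A at -4, and 28 of the 31 lower members were in it, while 28 of the 44 higher members were in the low class.

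**Figure D4:**
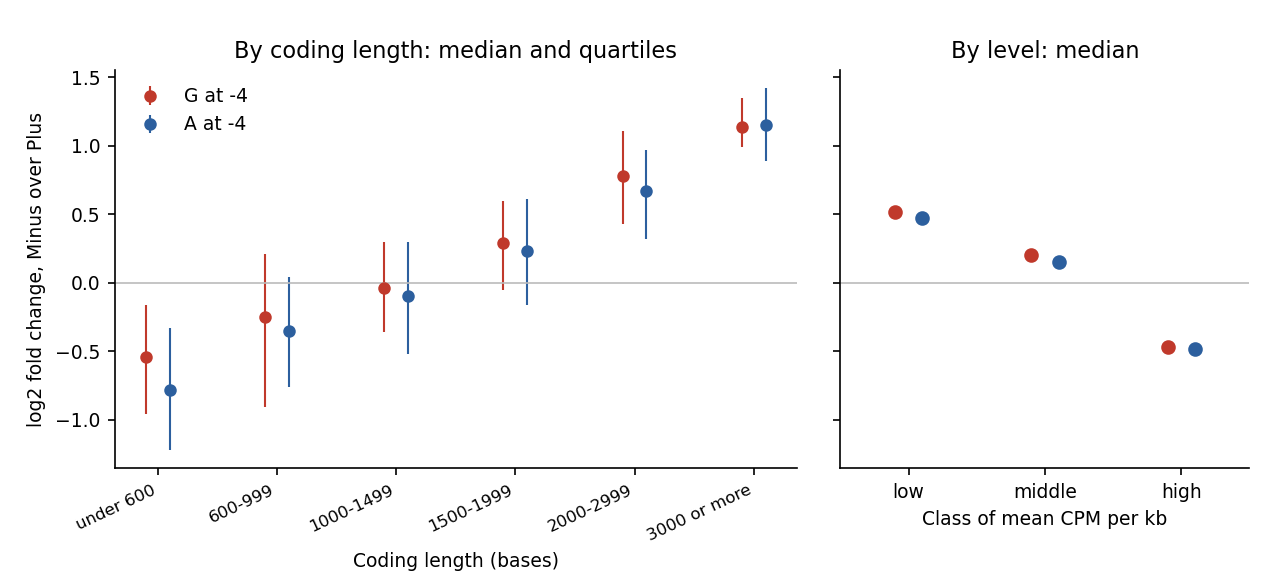
Left, the median log2 fold change of Minus_Rps26 over Plus_Rps26 with quartiles (lines), by bin of coding length in bases, for genes with G at -4 (red) and A at -4 (blue), both with A at -3. Right, the medians by class of mean CPM per kb. Both sets run from below 0 in the shortest genes, -0.54 and -0.78, to 1.14 and 1.15 in the longest, and nearly coincide within each class of level.

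Neighbouring bases split the 488 members further. By the base at -1, the median log2 fold change was 0.24 with T (106 genes, 11 higher, 3 lower), 0.11 with C (74 genes, 10 higher, 4 lower), 0.09 with A (240 genes, 19 higher, 18 lower) and -0.08 with G (68 genes, 4 higher, 6 lower). By the base at -2, C had the highest median, 0.25 (78 genes), and also the longest genes, with a median of 1518 bases. At -5 the median was -0.16 with C (97 genes) and 0.12 to 0.19 with the other bases. With A at -4 the order of the bases was not the same, since at -1 T had -0.02 and C had 0.08. These splits are descriptions, and their differences were not tested.

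Genes with G at -4 and A at -3 made up 8.8% of all contexts, and the pathway lists held few of them. In lists that had any, the share ran from 4.17% (ergosterol synthesis) to 13.2% (nuclear-encoded respiratory chain). In the Hog1 pathway, which answers osmotic stress, 3 of 30 genes had it, and 2 of these were called higher, against 6 higher and 0 lower in the whole list. For this and the following lists, the shares over all features tested were 8.10% higher and 7.90% lower. Lists with few members say little beside these shares. List counts also take no account of coding length. Of nuclear protein-coding genes, 58.0% of those of 3000 bases or more were called higher and 23.3% of those under 600 bases lower. With the length trend removed edgeR called no feature. CDC24 (YAL041W, chromosome I, 62840 to 65404), for the exchange factor of Cdc42, was at 89.7, 147.0 and 191.5 CPM in Minus_Rps26 against 76.15, 53.6 and 48.36 CPM in Plus_Rps26. The groups did not overlap, and the log2 fold change was 1.26 ± 0.33 (SE, edgeR adjusted p = 0.0375, and 0.117 with the replicate block).

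SSK22 (YCR073C, chromosome III, 242588 to 246583), for a kinase at the head of the Hog1 cascade, was at 58.67, 50.37 and 74.89 CPM in Minus_Rps26, at 26.98, 26.91 and 31.23 CPM in Plus_Rps26 and at 11.59 CPM in Rps3_TAP. Its groups were well apart in each replicate, and the log2 fold change came to 1.11 ± 0.27 (SE, edgeR adjusted p = 0.036, and 0.117 with the replicate block). PTP3, for a phosphatase of Hog1, had a log2 fold change of 0.84 ± 0.26 (SE) that did not pass the test (edgeR adjusted p = 0.0518). These are long genes, of 2565, 3996 and 2787 bases, and with the length trend removed CDC24 was at 0.47, SSK22 at -0.07 and PTP3 at -0.01, none of them called. RIM9, for a membrane protein of pH sensing, was the one Rim101 pathway gene of 23 with G at -4, and it overlapped between groups (log2 fold change 0.26 ± 0.33, SE, edgeR adjusted p = 0.585).

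Of 38 initiation factor genes, 2 had G at -4, both for subunits of eIF3, and neither was called. NIP1 was at 685.1, 788.2 and 729.0 CPM in Minus_Rps26 and at 650.4, 537.9 and 607.8 CPM in Plus_Rps26 (log2 fold change 0.29 ± 0.28, SE, edgeR adjusted p = 0.467), without overlap, and was at -0.41 with the length trend removed. TIF34 overlapped, at 287.0, 371.8 and 317.3 CPM against 380.1, 296.9 and 226.3 CPM. The whole list had 4 higher and 3 lower.

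Ribosome assembly factors had G at -4 in 8 of 77 genes with a context, and of these MDN1 was the one called. The log2 fold changes of the other 7 ran from -0.17 ± 0.29 in NOG1, for a GTPase of the large subunit's assembly, to 1.25 ± 0.45 in DBP10, for an RNA helicase (SE, edgeR adjusted p = 0.703 and 0.0715). Of the nuclear pore genes 2 of 31 had G at -4, MLP1 and SEH1, the latter at -0.15 ± 0.27 (SE). The full nuclear pore list had 9 higher and 0 lower.

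Nuclear-encoded respiratory chain genes had G at -4 in 5 of 38 cases. QCR8 and ATP16, for a subunit of ATP synthase, were lower, the latter at -0.96 ± 0.29 on the log2 scale (SE, edgeR adjusted p = 0.0453). CYT1, QCR6 and ATP7 did not pass the test, at -0.23, 0.73 and -0.63. The whole list had 12 lower and 0 higher.

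Of the proteasome genes 3 of 33 had G at -4 (PUP1, RPT6 and RPN1), none of them called, at log2 fold changes of -0.63, -0.27 and 0.33, and ERG28 was the one of 24 ergosterol genes. No gene with G at -4 was found among 22 of glycolysis and fermentation, 17 translation elongation and termination factors, 10 histones, 21 cytosolic aminoacyl-tRNA synthetases and 23 heat shock chaperones. Of these, the glycolysis list had 6 genes lower and 0 higher in all contexts and the histones 6 lower and 0 higher. Genes with A at -4 made up 6, 7, 3, 8 and 11 of these 5 lists. Over all contexts 8.8% had G at -4 and 26.1% A at -4, both with A at -3. The lack of genes with G at -4 in these 5 lists was not tested against these shares.

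Against Rps3_TAP, which serves as the control of both remaining comparisons and is a single library, the spread was taken from the replicates of the other groups. For Minus_Rps26 over Rps3_TAP, 59 of 493 tested members were higher and 58 lower, or 12.0% and 11.8%, where 26.2% of all 5815 features were called, 10.6% higher and 15.6% lower. With A at -4, 150 were higher (10.2%) and 244 lower (16.6%) of 1473. The median log2 fold change was 0.25 with G at -4, 0.08 with A at -4, 0.03 with C, 0.26 with T and 0.18 over all features. T at -4 thus stood beside G at -4 in this comparison. The gap between the medians of G and A at -4 was 0.17, 0.17 and 0.19 in the 3 Minus_Rps26 libraries taken one by one (SD 0.01, n = 3), all against the same library.

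The members highest against Rps3_TAP were ADY3, for a protein of spore wall assembly (2.75 ± 0.65), ZIP1, for a protein of the synaptonemal complex (2.40 ± 0.69), SSK22 (2.40 ± 0.45) and PUF6, for an RNA-binding protein (2.40 ± 0.61, log2 fold change ± SE). PUF6 was at 345.5, 440.5 and 370.8 CPM in Minus_Rps26, at 351.8, 170.8 and 132.0 CPM in Plus_Rps26 and at 73.0 CPM in Rps3_TAP, and Minus_Rps26 and Plus_Rps26 overlapped. The lowest were ERG28 (-3.65 ± 0.59), MIM2, for a mitochondrial outer membrane import protein (-3.28 ± 0.50), COX23, for a protein of the mitochondrial intermembrane space (-2.85 ± 0.50), and EMI1 (-2.68 ± 0.44). ERG28 had an edgeR adjusted p of 0.00398 and was 12.6-fold lower than the 215.2 CPM of Rps3_TAP.

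For Plus_Rps26 over Rps3_TAP, 0 members were higher and 1 was lower by edgeR, where 1.48% of all features were called, 0.206% higher and 1.27% lower. At an unadjusted p under 0.05 there were 49 higher and 45 lower, and DESeq2 called 12 higher and 13 lower. The one called was YGP1, for a secreted cell wall glycoprotein, at 38.56, 15.63 and 24.95 CPM in Minus_Rps26, 26.71, 13.72 and 13.47 CPM in Plus_Rps26 and 166.3 CPM in Rps3_TAP. Both groups of the engineered strain thus lay far below the other strain (log2 fold change of Plus_Rps26 over Rps3_TAP -3.21 ± 0.50, SE, edgeR adjusted p = 0.0158) and overlapped each other. The median was 0.07 with G at -4, 0.03 with A at -4 and 0.07 over all features.

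In the authors' deposited table of Minus_Rps26 and Plus_Rps26, made with DESeq2, 77 genes with G at -4 were called positive and 66 negative of 487 with an adjusted p-value. In the same authors' deposited table, genes with A at -4 were called positive in 175 and negative in 234 cases of 1451, and all features in 742 and 868 of 5517. As shares, in the authors' deposited table, these were 15.8% and 13.6% with G at -4, 12.1% and 16.1% with A at -4, and 13.4% and 15.7% over all. As in the counts from edgeR, the share of positive calls was larger with G at -4 and that of negative calls with A at -4. Both counts come from the same samples, so neither is a separate check of the other. The shares with A at -4 lay near those over all features.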

How the data were processed

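RNA from bound and unbound ribosomes, with ribosomal RNA removed, was sequenced from stranded libraries, per the labels' protocols. The submitters' processing notes name TopHat2 2.0.9, the build sacCer3, DESeq and DESeq2; which program counted the reads, and whether by strand, is not given in the sources used here, and reads of overlapping or antisense genes may be mixed. The authors deposited raw counts of 6341 features for each of 7 libraries, used here for every test, and a result table of DESeq2 with log2 fold changes and adjusted p-values in the deposited columns, whose column of 20 upstream bases gave the contexts. The base next to the start codon was read as -1, which puts A in 60.8% of contexts at -3. Reads in no feature (3.37% to 7.48%) and ambiguous reads (0.15% to 2.75%) stayed out, as shares that take no account of non-unique alignments. Non-unique alignments stayed out too. Where their line was not 0 they numbered 11530659 to 18980582, beside total counts of 9605899 to 17136240 in the same libraries.

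Counts were tested with edgeR 4.0.16 in R 4.3.3 (trimmed-mean scaling, default filter on low counts, quasi-likelihood test, Benjamini-Hochberg adjustment over all features, threshold 0.05); the test was checked on simulated data. Minus_Rps26 and Plus_Rps26 were fitted alone, comparisons with Rps3_TAP over all 7 libraries. Each SE was obtained as the log2 fold change over the root of the F value. CPM were scaled over all 7 libraries. Coding length is the RefSeq span of assembly R64, the assembly of sacCer3, introns included, and coordinates come from it. Medians of lists carry no test.

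Replicates are taken as numbered in the titles; Plus_Rps26 replicate 2 carries another flowthrough number in its description. The series text calls the replicates biological, without saying whether they came from separate cultures, so p-values measure the spread between these samples. The protocol makes eluate and flowthrough of one number the 2 parts of one lysate, so the number is taken to pair them; correlations between the deviations of the paired libraries were -0.19, 0.47 and 0.01. The line for non-unique alignments was 0 in replicate 3 of both groups only. Whether such alignments were handled otherwise in those libraries was not tested.

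Members and lists were chosen with earlier results of these data known. Genes are named by rule: the 8 highest and 8 lowest called that averaged at least 10 CPM without overlap, the 5 most abundant per kb, all members of the Hog1, Rim101 and initiation factor lists, the 4 highest and 4 lowest called against Rps3_TAP, and for A at -4 the 4 highest and 4 lowest and the 3 most abundant. Other list members and the COS genes were named after their values were seen. Alternatives were DESeq2 1.42.0, other scaling, no filter, protein-coding genes alone, the replicate block, removal of a loess trend (span 0.5) with coding length, a band of length, classes of level and each library left out.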

Additional observations from a re-analysis of the deposited data

How the results depend on the processing

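Between Minus_Rps26 and Plus_Rps26 the 44 higher and 31 lower members became 77 and 58 with DESeq2, 0 and 0 with the length trend removed, 0 and 0 with the replicate block, 0 and 0 with the block and the length trend removed together, 95 and 1 with total-count scaling and 90 and 61 at an adjusted p of 0.1. With each library left out in turn they ranged from 0 to 123 higher and from 0 to 90 lower. The gap between the medians of G and A at -4, 0.12, was 0.03 among coding lengths of 1000 to 2000 bases and 0.05, 0.04 and 0.01 in the low, middle and high class of level; with a library left out it ranged from 0.11 to 0.16.

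For Minus_Rps26 over Rps3_TAP, 59 higher and 58 lower became 16 and 33 with the length trend removed and 146 and 4 with total-count scaling, and 102 were higher at an adjusted p of 0.1; leaving out a library gave 14 to 54 higher and 24 to 42 lower. The gap of 0.17 was 0.11 with the length trend removed, 0.18 with no filter, 0.02 among 1000 to 2000 bases, 0.23 with RPS and RPL names kept, 0.13 to 0.22 with a library left out, and -0.01, 0.03 and 0.12 in the low, middle and high class.

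For Plus_Rps26 over Rps3_TAP, 0 higher became 12 with DESeq2, 8 at an adjusted p of 0.1 and up to 14 with a library left out. The 1 lower became 13 with DESeq2, 13 at an adjusted p of 0.1, 2 with no filter, 3 with protein-coding genes alone, 2 with relative log expression scaling, 0 with total-count scaling and 1 to 31 with a library left out. Its gap of 0.05 was 0.01 among 1000 to 2000 bases, 0.07 to 0.09 with a library left out, and -0.08 and 0.12 in the middle and high class.

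Signs changed with the length trend removed in TEL1 (-0.11), MDN1 (-0.53), EGD2 (0.04), YDR524C-B (0.10), YPR036W-A (0.42), SSK22 (-0.07), PTP3 (-0.01) and NIP1 (-0.41), with total-count scaling in EGD2 (0.13) and YPR036W-A (0.25), and in TIF34 (-0.10) without Plus_Rps26 replicate 3. The cause was not tested. Of the other values of named genes, 338 kept their direction and side of the threshold, 186 no longer passed and 14 newly passed. No block was possible in comparisons with Rps3_TAP, which has 1 library.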

Other observations

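Among the comparison genes with A at both -4 and -3, the highest called in Minus_Rps26 over Plus_Rps26 were EAF1 (log2 fold change 2.08), ESC1 (2.02), SNT1 (2.01) and PMD1 (1.86), and the lowest were YJR112W-A (-2.65), ASC1 (-2.54), PGK1 (-2.36) and ANB1 (-2.01). EAF1 and SNT1 encode subunits of histone-modifying complexes, and ESC1 a protein of the nuclear periphery. ASC1, for the yeast RACK1 of the small ribosomal subunit, was at 1704, 1339 and 1217 CPM in Minus_Rps26 and at 2382, 7879 and 14420 CPM in Plus_Rps26, and PGK1, for a glycolytic enzyme, at 1963, 1490 and 1864 CPM against 3005, 8123 and 16060 CPM. The range of called changes was thus close to that of genes with G at -4, from -2.65 to 2.08 against -2.56 to 2.07. The most abundant per kb with A at -4 were CCW12 (17320 CPM per kb), YDR524C-B (12300) and YPR036W-A (11180), above the 3364 CPM per kb of RPP1B, the most abundant with G at -4.

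Groups did not overlap in 174 of 488 genes with G at -4, with Minus_Rps26 above Plus_Rps26 in 113 (23.2%) and below in 61 (12.5%). With A at -4 the shares were 18.0% above and 19.4% below, and over all features 21.0% and 17.4%, beside 8.10% and 7.90% called.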
